A study of Mus musculus with 8 samples.

Results

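The nuclear genes of oxidative phosphorylation were followed in mouse leukaemia cells at 0h, 6h, 12h and 24h. Members were chosen by symbol, not by their values: protein-coding genes named Nduf (complex I), Sdh (II), Uqcr (III), Cox4 to Cox8 (IV) or Atp5 (V). The rule found 84 of 47069 gene rows, with 37 genes of complex I, 4 of II, 8 of III, 18 of IV and 17 of V. A filter on low counts passed 79 of the 84. The other 5 were isoforms of complex IV: Cox4i2 held 0 to 7 counts per library, Cox6b2 5 to 21 and Cox8b 0 to 5, while Cox7b2 and Cox8c held 0 counts in all 8 libraries.

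The cells were MLL-AF9 acute myeloid leukaemia cells (MLL-AF9 is a fusion oncogene) with a TetO-Klf4 transgene, in which expression of Klf4, a transcription factor gene, is switched on by doxycycline. They were sorted as GFP-positive cells from leukaemic mice, with bone marrow as the labelled tissue and C57BL/7 as the strain, spelled as in the labels. The 4 groups were 0h, 6h, 12h and 24h, with 2 libraries each, and every group carried the fusion and the transgene. The labels give no age and no starting event for the hours. Whether replicates came from separate mice is not given either, so p-values reflect the spread of these libraries alone, and that spread may be technical. A control with doxycycline but no transgene was not analysed here.

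The electron transport chain sits in the inner mitochondrial membrane. Complex I (NADH dehydrogenase) and complex II (succinate dehydrogenase) pass electrons to ubiquinone, complex III passes them to cytochrome c, and complex IV passes them to oxygen. Complexes I, III and IV pump protons, and complex V, the ATP synthase, uses the gradient to make ATP. Most subunits are encoded in the nucleus and a few core subunits in mitochondrial DNA. Myeloid leukaemia cells are known to depend on this pathway.

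Libraries held 20394546 to 26041347 gene counts. Klf4 averaged 3.57 ± 1.21 CPM in 0h libraries, 151 ± 0.474 in 6h, 113 ± 2.74 in 12h and 77.8 ± 1.34 in 24h libraries (SD, n = 2; CPM are counts scaled to the library total, with TMM factors), highest at 6h. All 8 myeloid leukaemia markers were tested, and at 24h 3 were called higher (Itgam 0.36, Mpo 0.19 and Hoxa9 0.12 on the log2 scale) and 3 lower (Elane -0.30, Meis1 -0.24 and Kit -0.23). Their summed level, carried mostly by Hoxa9, Hoxa10 and Ptprc, was 1452 and 1469 CPM at 24h, against 1478 and 1435 CPM at 0h. The 4 T cell markers summed to at most 0.0808 CPM in any library, and the 6 erythroid markers to at most 2.01 CPM. Of the 4 B cell markers 2 were tested, and Cd79b was called lower at 24h (-0.56). Cd79a (1.90) had 0.79 and 0.85 CPM at 24h, against 0.20 and 0.23 CPM at 0h. It passed the filter on low counts only through the later times, where it is high, so its call is no support for a difference. Ms4a1 had 0 counts in all libraries, and the 4 summed to 8.52 and 8.60 CPM at 24h, against 11.1 and 12.2 CPM at 0h. The 5 endothelial and stromal markers summed to 139 and 145 CPM at 24h, against 183 and 187 CPM at 0h. Nearly all of that sum was Pecam1, the only 1 tested, which fell (-0.38) to 139 and 145 CPM, from 182 and 187 CPM. Each of the others had at most 0.46 CPM in any library. The share of fragments outside any counted gene feature averaged 5.47% in 0h, 6.21% in 6h, 8.63% in 12h and 9.15% in 24h libraries. The part of these markers and fragments in the results was not tested.

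All 5 complexes had lower summed levels after 0h, by a modest amount. The 84 members together stood at 13290 and 13602 CPM at 0h, 11735 and 12656 CPM at 6h, 11569 and 11500 CPM at 12h, and 11494 and 10998 CPM at 24h. Both libraries of each later time lay below both 0h libraries, and the 2 libraries at 6h were the farthest apart. The mean at 24h was 11246 ± 351 CPM, against 13446 ± 220 CPM at 0h (SD, n = 2), a difference of -16.4%. By complex the difference at 24h was -17.1% for I, -16.8% for II, -12.8% for III, -14.6% for IV and -17.4% for V, with no test on the sums. Complex V made up 43.9% to 45.6% of the members' CPM in every library. In bulk RNA, fewer cells that express a gene and less of its RNA per cell cannot be told apart.

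**Figure D1:**
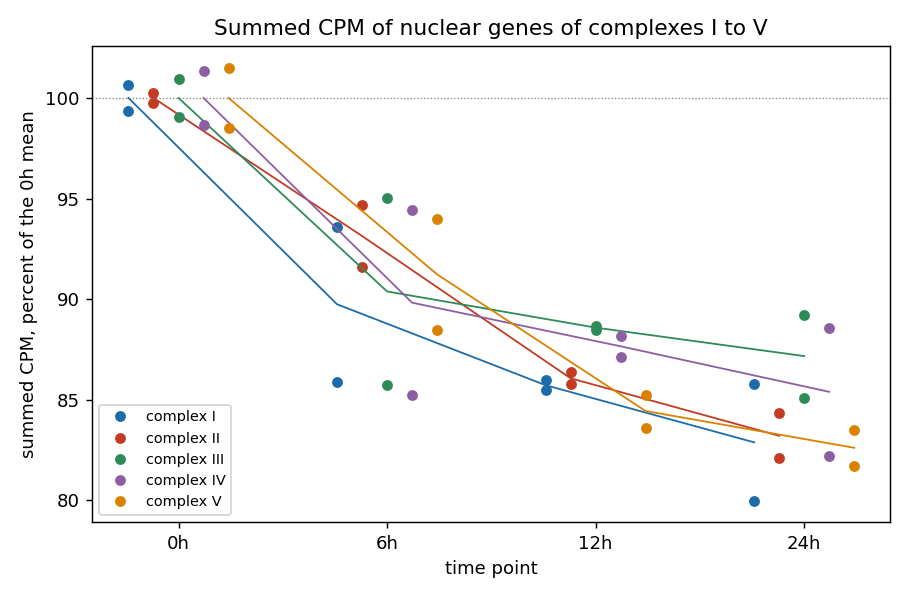
Summed CPM of the members of each complex in every library (points), as a percent of the mean at 0h, with lines through the means of 2 libraries. The vertical axis does not start at 0. All 5 complexes lie below their 0h libraries at 24h, by -12.8% to -17.4% of the 0h mean.

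Gene by gene, the decline was shared widely. At 24h against 0h, 67 of the 79 tested members fell, 2 rose and 10 were not called, at an adjusted p under 0.05 in edgeR's quasi-likelihood test with Benjamini-Hochberg adjustment over 14263 genes. Over all genes tested, 24.8% fell and 26.1% rose in that comparison, 50.9% in all. At 12h, 61 members fell and 2 rose, where 21.6% of all genes fell and 22.1% rose (43.7% in all). At 6h, 36 fell and 1 rose, where 8.58% of all genes fell and 9.74% rose (18.3% in all). Each of these counts of rises includes Ndufa4l2. It passed the filter only through the times where it is high, so its call is no support for a difference. The members' median log2 fold change against 0h was -0.14 at 6h, -0.22 at 12h and -0.25 at 24h, while that of all genes tested was -0.0036, 0.0018 and 0.017. Both 24h libraries lay below both 0h libraries for 72 members and above them for 2, but the same was not counted over all genes. These 2 counts are therefore no result about the members. An F test over the time course called 68 members, where 52.8% of all genes were called.

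The falls were small, and none passed 2-fold. They ran from -0.11 to -0.66 on the log2 scale at 24h, with SEs of 0.04 to 0.20, and their median was a decrease of 17.1%. Tested against a fold of 1.5 in place of no change, 0 members were lower at any time. Of the tested members, 35 were lower at all 3 later times, 25 at 12h and 24h only, and 7 at 24h only. Group means declined at each step for 49 members. These counts were not made over all genes, and the 3 comparisons share the 0h libraries, so the counts are a description only. Between neighbouring times, 13 members fell and 2 rose at 12h against 6h, where 9.79% of all genes fell and 10.9% rose (20.7% in all). At 24h against 12h, 3 fell and 1 rose, where 3.04% of all genes fell and 3.41% rose (6.46% in all). Exons of 29 tested members overlap another annotated gene. Of the 50 without such an overlap, 44 fell at 24h, with a median of -0.24. The count at 6h rested on single libraries: it was 10 without 0h replicate 2, 21 without 0h replicate 1, 12 without 6h replicate 1 and 63 without 6h replicate 2.

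**Figure D2:**
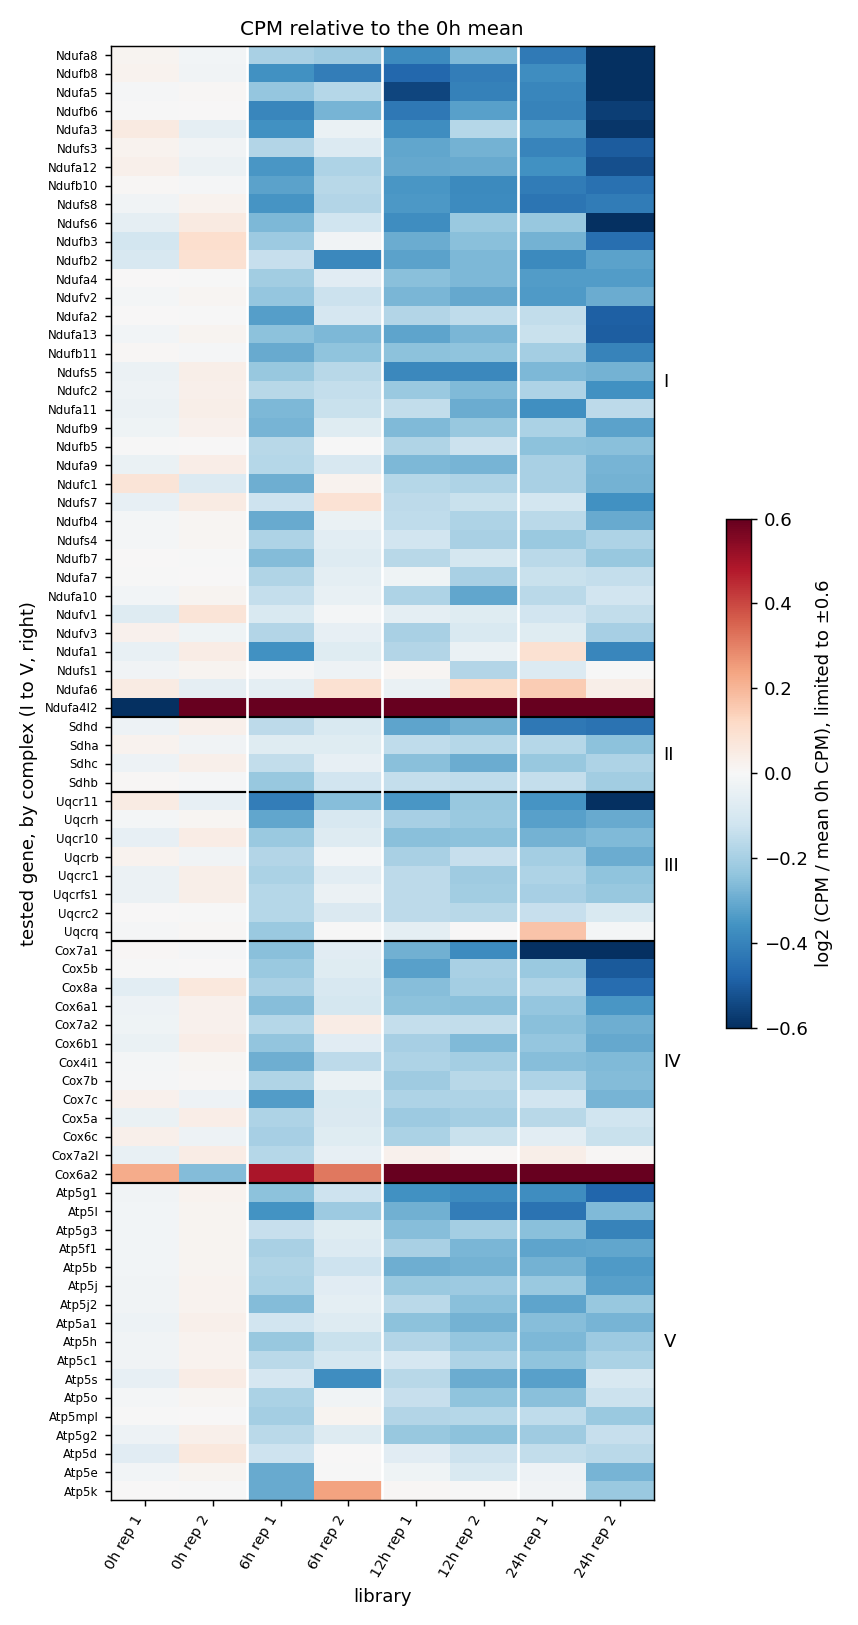
CPM of 78 of the 79 tested members in each of the 8 libraries, as log2 of the ratio to the mean at 0h, limited to ±0.6 for colour. Rows are grouped by complex I to V and ordered by the change at 24h. Most rows turn blue (lower) from 6h on, and the row of Cox6a2 turns red (higher). The row of Ndufa4l2 is red at all later times. Its 0h libraries, with 0 and 2 counts, stand at the blue and the red limit of colour.

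Members are abundant and their transcripts are short, and both set what they should be compared with. Among the 6099 abundant genes, those whose mean log2 CPM reached 5, which include 73 members, 16.5%, 37.1% and 40.1% fell at 6h, 12h and 24h, and 11.5%, 21.8% and 24.6% rose. The median transcript of a member was 758 bases long, against 2593 bases for all genes tested. The 37 abundant members with transcripts under 800 bases had a median log2 fold change of -0.27 at 24h, and 86.5% of them fell. The 175 other abundant genes of that length had a median of -0.23, and 69.1% fell. From 800 bases on, the 36 abundant members had a median of -0.23 and 91.7% fell, while the 5847 other abundant genes had a median of -0.049 and 38.6% fell. Under 800 bases, members and other genes had medians of -0.15 and -0.14 at 6h, where 54.1% and 49.1% fell. At 12h the medians were -0.22 and -0.20, and 81.1% and 67.4% fell. From 800 bases on, the medians were -0.12 and -0.024 at 6h, where 41.7% and 15.2% fell. At 12h they were -0.20 and -0.048, and 83.3% and 35.7% fell. No test was run on these differences.

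When an offset for GC content and transcript length was fitted in each library, fewer members were called. At 24h, 32 fell, 7 rose and 40 were not called, with a median of -0.076, and all 32 were among the 67. At 12h, 32 fell and 4 rose, and at 6h, 13 fell and 1 rose, with medians of -0.076 and -0.046. Under that offset 24.1% of all genes fell and 26.1% rose at 24h. At 12h 21.5% of all genes fell and 21.6% rose under it, and at 6h 9.67% fell and 9.28% rose. The offset on length alone gave 33 falls and 6 rises at 24h, and the offset on GC content alone 66 and 2. For these last offsets the shares of all genes were not counted. By complex, 16 of 37 fell and 2 rose in I at 24h under the joint offset, 3 of 4 fell and 0 rose in II, 3 of 8 fell and 1 rose in III, and 6 of 17 fell and 0 rose in V. In complex IV 4 of 13 fell and 4 rose, with a median of -0.019, and its medians at 6h and 12h were above 0 under the offset (0.0070 and 0.021), against -0.14 and -0.20 without it. The 7 that rose under it were Ndufa4l2, Cox6a2, Ndufa6, Uqcrq, Cox6c, Cox7a2l and Cox5a, where the call of Ndufa4l2 is again no support. The summed levels of the complexes were not run with an offset. What part transcript length has in the decline was not tested further.

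**Figure D3:**
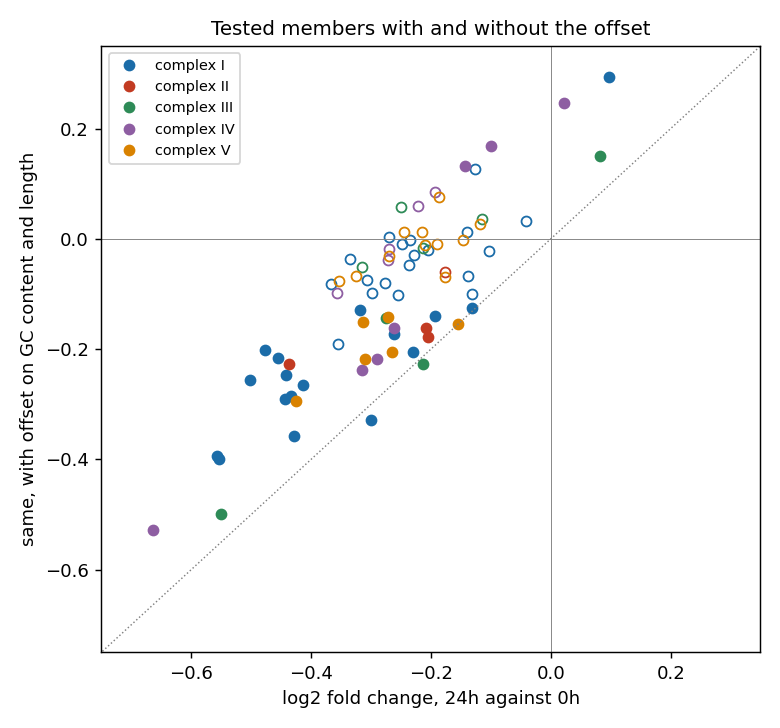
Log2 fold change at 24h against 0h of 77 tested members without (horizontal) and with (vertical) an offset on GC content and transcript length. Filled points passed an adjusted p under 0.05 with the offset, open points did not, and the dotted line marks equal values. Ndufa4l2 and Cox6a2 lie outside the axes, and 74 points lie above the line.

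Complex I takes electrons from NADH through 7 conserved nuclear core subunits and many supernumerary ones. Of the core genes 5 fell at 24h, with a median over all 7 of -0.23, and of the 28 supernumerary genes, leaving out Ndufa4 and Ndufa4l2, 25 fell, with a median of -0.27. Ndufs8, an iron-sulfur subunit, had 72.7 and 74.8 CPM at 0h, 57.7 and 65.3 CPM at 6h, 58.2 and 56.8 CPM at 12h, and 54.5 and 55.2 CPM at 24h. Every later library lay below both 0h libraries. Its log2 fold change at 24h was -0.43 ± 0.06 (SE; adjusted p = 6.4e-08, edgeR), and -0.36 with the offset. Ndufs3, another core subunit, had 79.0 and 76.9 CPM at 0h, 69.0 and 73.6 CPM at 6h, 62.8 and 64.0 CPM at 12h, and 59.3 and 55.2 CPM at 24h. It declined further at 12h than at 6h, and its change at 24h was -0.44 ± 0.05 (adjusted p = 1.2e-08), or -0.29 with the offset.

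The core subunits did not all move. Ndufs1, the largest iron-sulfur subunit, had 112 and 115 CPM at 0h, 113 and 111 CPM at 6h, 114 and 100.2 CPM at 12h, and 107 and 113 CPM at 24h. The groups overlapped, and the change at 24h was -0.042 ± 0.051 (adjusted p = 0.52). Ndufv2 fell by 0.32 ± 0.05 and Ndufv1, the FMN-binding subunit, by 0.13 ± 0.05 (adjusted p = 6.4e-07 and 0.027), and with the offset by 0.13 and 0.12. Ndufs7 fell by 0.23 ± 0.07 (adjusted p = 0.0034). The calls of Ndufs7 and Ndufv1 were lost without 0h replicate 2 (-0.18 and -0.056) or without 24h replicate 2 (-0.11 and -0.12), and that of Ndufv1 also by DESeq2. Without 24h replicate 1 Ndufs7 changed by -0.37, and without 0h replicate 1 Ndufv1 changed by -0.21.

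The largest falls in complex I were in supernumerary subunits. Ndufa8 had 88.2 and 86.5 CPM at 0h, 76.2 and 75.4 CPM at 6h, 67.3 and 72.7 CPM at 12h, and 65.1 and 53.5 CPM at 24h. The levels of the 4 times did not overlap, and the changes against 0h were -0.20, -0.32 and -0.56 ± 0.06 (adjusted p = 1.4e-09 at 24h). Ndufb8 had 65.8 and 63.7 CPM at 0h, 50.4 and 48.6 CPM at 6h, 46.7 and 48.5 CPM at 12h, and 50.1 and 38.0 CPM at 24h. Most of its fall was in place at 6h (-0.39 ± 0.07), and it was -0.55 ± 0.07 at 24h (adjusted p = 5.7e-08). Ndufa5 fell by 0.50 ± 0.06 at 24h. Ndufb10, named for its result over the time course and not as the next in rank, fell by 0.43 ± 0.05. With the offset these 4 changes were -0.39, -0.40, -0.26 and -0.28, each still called.

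Of the complex I members that did not fall, 5 were not called at 24h, and Ndufa4l2 rose. Ndufa6, Ndufa1 and Ndufb2 were among the 5 and are named here after their values were seen. Ndufa6 had 59.5 and 54.8 CPM at 24h, against 55.4 and 51.6 CPM at 0h, a change of 0.097 ± 0.063 (adjusted p = 0.20) that became 0.29 with the offset. Ndufb2 had only 45 to 56 counts per library. Exons of Ndufb2 coincide with other annotated genes over 447 bases, which can take reads from it.

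Ndufa4 and its paralog Ndufa4l2 went in opposite directions. Ndufa4, named for complex I but since assigned to complex IV, had 193.9 and 193.4 CPM at 0h, 168 and 185 CPM at 6h, 163 and 161 CPM at 12h, and 153 and 154 CPM at 24h. Its groups at 24h and 0h did not overlap (-0.33 ± 0.04; adjusted p = 7.4e-08), though the offset reduced the change to -0.037 (adjusted p = 0.42). Ndufa4l2, known as a hypoxia-induced gene that restrains complex I activity, had 0 and 2 counts at 0h, 10 and 26 counts at 6h, 50 and 47 counts at 12h, and 63 and 49 counts at 24h. Every later library exceeded both 0h libraries, and the level stayed low, at 2.38 and 1.98 CPM at 24h. The ratio of its summed counts to 0h was 16.2 at 6h (95% counting interval 4.16 to 138), 42.3 at 12h (11.4 to 354) and 45.5 at 24h (12.3 to 381). The interval covers counting error only. Ndufa4l2 passed the filter on low counts only through the later times, where it is high, so its call in the fit is no support for the difference.

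Ndufa4l2 overlaps the exons of Shmt2, on the opposite strand, by 32 bases, and whether counting used the strand is unknown. Shmt2, a mitochondrial serine hydroxymethyltransferase, itself rose by 0.79 ± 0.04 at 24h. Per 1000 counts of Shmt2, Ndufa4l2 had 3.43 and 2.83 counts at 24h, against 0 and 0.229 at 0h.

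Complex II oxidises succinate in the TCA cycle and is the only complex encoded wholly in the nucleus. All 4 genes fell at 24h. Sdhd, a membrane anchor, had 229.9 and 240.2 CPM at 0h, 211 and 221 CPM at 6h, 189 and 193 CPM at 12h, and 175 and 173 CPM at 24h. Its groups did not overlap at any pair of times, and it fell by 0.44 ± 0.04 at 24h (adjusted p = 5.9e-11). Sdhc, the other anchor, fell by 0.21 ± 0.05, Sdha, the flavoprotein, by 0.21 ± 0.04, and Sdhb, the iron-sulfur subunit, by 0.18 ± 0.05 (adjusted p = 0.00036, 5.4e-05 and 0.0026). With the offset Sdhd, Sdhc and Sdha changed by -0.23, -0.18 and -0.16 and remained called, while Sdhb changed by -0.061 (adjusted p = 0.23).

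Complex III passes electrons from ubiquinol to cytochrome c, and 7 of its 8 genes fell at 24h. Uqcr11, a small subunit, had 115 and 107 CPM at 0h, 83.4 and 93.2 CPM at 6h, 87.3 and 94.8 CPM at 12h, and 86.9 and 64.5 CPM at 24h. The later libraries all lay below 0h, 24h replicate 2 lowest, and the change at 24h was -0.55 ± 0.07 (adjusted p = 7.4e-08), or -0.50 with the offset and -0.36 without 24h replicate 2. Uqcrc1, a core protein, had 305 and 293 CPM at 24h, against 338 and 355 CPM at 0h. It fell by 0.21 ± 0.04 and by 0.23 with the offset (adjusted p = 0.00011 and 4.7e-07). Uqcrfs1, the Rieske iron-sulfur protein, fell by 0.21 ± 0.05, but changed by -0.016 with the offset. Uqcrc2, the other core protein, fell by 0.11 ± 0.04 (adjusted p = 0.021), but changed by 0.036 with the offset, and leaving out either 0h library (-0.11 and -0.12) or 24h replicate 1 (-0.096) ended its call. The small subunits Uqcrh, Uqcr10 and Uqcrb fell by 0.31 ± 0.05, 0.27 ± 0.05 and 0.25 ± 0.06 (adjusted p = 2.0e-06, 1.8e-05 and 0.00040), and with the offset they changed by -0.051, -0.14 and 0.057, of which only Uqcr10 was called. Annotated pseudogenes of Uqcrh, 2 in number, can share its reads. Uqcrq was not called, with 192.9 and 169.7 CPM at 24h, against 170.5 and 172 CPM at 0h.

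Complex IV reduces oxygen, and 10 of its 13 tested genes fell at 24h. Cox4i1, the main isoform of a regulatory subunit, had 350.2 and 357 CPM at 0h, 288 and 317 CPM at 6h, 310.3 and 307 CPM at 12h, and 296 and 294 CPM at 24h. All later libraries lay below 0h, with a change of -0.26 ± 0.04 at 24h (adjusted p = 3.4e-06) and -0.16 with the offset. Cox5b fell by 0.36 ± 0.06 and Cox5a by 0.14 ± 0.05 (adjusted p = 2.8e-06 and 0.023). With the offset Cox5b changed by -0.098 and was not called (adjusted p = 0.085), and without 24h replicate 2 it fell by 0.23. The call of Cox5a was lost by DESeq2 and without 0h replicate 2 (-0.10) or 24h replicate 1 (-0.12), and with the offset it changed by 0.13. Cox7a2l, a factor that joins complexes III and IV in supercomplexes, had 178 and 174 CPM at 24h, against 168 and 178.5 CPM at 0h, and changed by 0.022 ± 0.045 (adjusted p = 0.71). Cox6c, named here after its values were seen, was not called either (-0.099 ± 0.046; adjusted p = 0.070).

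Several complex IV subunits have isoforms, and the ubiquitous form was the abundant one in each pair tested. Cox6a2, the heart and muscle form, had 2.06 and 1.47 CPM at 0h, 2.48 and 2.20 CPM at 6h, 3.49 and 3.01 CPM at 12h, and 7.23 and 7.95 CPM at 24h. Its 24h libraries exceeded every earlier one. It rose by 0.89 ± 0.22 at 12h and 2.11 ± 0.19 at 24h (adjusted p = 0.0013 and 1.3e-11). It had 388 counts over both 24h libraries, against 73 over both 0h libraries. Cox6a1, the ubiquitous form, had 261 and 241 CPM at 24h, against 301 and 313 CPM at 0h, and fell by 0.29 ± 0.05 (adjusted p = 1.9e-06). Per 1000 counts of Cox6a1 there were thus 27.7 and 33.0 of Cox6a2 at 24h, against 6.84 and 4.70 at 0h. Cox6a2 overlaps Itgad on the opposite strand by 70 bases, and Itgad changed by 0.24 ± 0.33 (adjusted p = 0.57).

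Cox7a1, the muscle form of another subunit, fell together with its ubiquitous partner. It had 3.77 and 3.73 CPM at 0h, 3.15 and 3.58 CPM at 6h, 3.07 and 2.88 CPM at 12h, and 2.42 and 2.30 CPM at 24h. Both 24h libraries lay below all others, and the change was -0.66 ± 0.20 (adjusted p = 0.0046). The 8 libraries held 57 to 91 counts of it each. Cox7a2, the ubiquitous form, fell by 0.27 ± 0.05 (adjusted p = 3.3e-05). Cox8a and Cox6b1, the forms other than Cox8b, Cox8c and Cox6b2, fell by 0.31 ± 0.05 and 0.27 ± 0.05. With the offset Cox6a1 and Cox8a remained called, at -0.22 and -0.24 (Cox8a at -0.19 without 24h replicate 2 in the fit with no offset), and Cox7a2 and Cox6b1 did not, at -0.039 and -0.019.

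**Figure D4:**
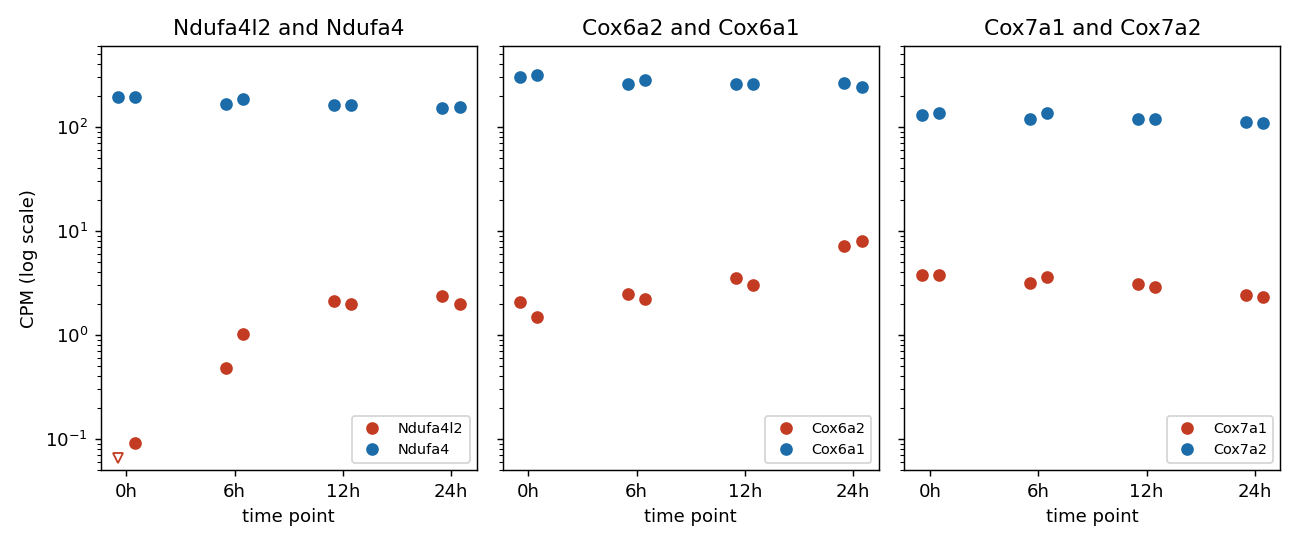
CPM (log axis) of 3 pairs of related genes in each library at 0h, 6h, 12h and 24h, with the scarcer gene in red and the abundant one in blue. The open triangle at the lower edge marks the 0h library with 0 counts of Ndufa4l2, which has no place on a log axis. Ndufa4l2 and Cox6a2 are highest at 12h and 24h, up to 2.38 and 7.95 CPM, and the other 4 genes have their lowest means at 24h.

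Complex V makes ATP, and 15 of its 17 genes fell at 24h. Its beta and alpha subunits are the most abundant members: Atp5b and Atp5a1 together made up 52.0% to 54.5% of the complex V CPM in every library. Atp5b, the beta subunit, had 1927 and 1972 CPM at 0h, 1722 and 1786 CPM at 6h, 1592 and 1602 CPM at 12h, and 1604 and 1539.8 CPM at 24h. It fell by 0.29 ± 0.04 at 12h and by 0.31 ± 0.04 at 24h (adjusted p = 4.9e-08 at 24h), and 24h against 12h was not called. Atp5a1, the alpha subunit, fell by 0.27 ± 0.04 at both 12h and 24h (adjusted p = 8.9e-07 at 24h). With the offset the beta and alpha subunits fell by 0.22 and 0.21, both still called.

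The 3 genes Atp5g1, Atp5g2 and Atp5g3 encode the same mature membrane ring subunit c and differ in their targeting peptide. Atp5g1 had 241 and 249 CPM at 0h, 207 and 225 CPM at 6h, 190.8 and 189 CPM at 12h, and 189 and 176 CPM at 24h. It fell by 0.43 ± 0.04 at 24h, Atp5g3 by 0.32 ± 0.04 and Atp5g2 by 0.18 ± 0.04 (adjusted p = 4.8e-10, 1.6e-07 and 0.00092). Only Atp5g1 remained called with the offset, at -0.29. Atp5c1, the gamma subunit of the rotor, fell by 0.21 ± 0.04 but changed by 0.012 with the offset. Atp5f1, the stator subunit b, fell by 0.31 ± 0.04 (adjusted p = 1.2e-07) and by 0.15 with the offset. Atp5l, a small membrane subunit, fell by 0.35 ± 0.05 (adjusted p = 5.3e-07), but was not called with the offset (-0.076). Pseudogenes of Atp5l, Atp5k and Atp5c1 are annotated and can share reads with them. Atp5s, known as coupling factor B of the ATP synthase, had 8.33 and 9.77 CPM at 24h, against 10.1 and 10.8 CPM at 0h, and was not called (-0.21 ± 0.12; adjusted p = 0.14). Atp5k, the other gene of the complex not called, changed by -0.12 ± 0.09 (adjusted p = 0.26).

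Per length, Atp5b stood highest of all members, at 820.4 CPM per kilobase of transcript at 24h, against 1017 at 0h. As examples among the members that fell, and not as the next in rank, Cox8a had 443 at 24h, against 550.5 at 0h, and Cox6a1 440.1, against 538. The median per kilobase of the tested genes was 61.7 CPM in complex I at 24h, against 75.05 at 0h. In complex V the median was 240.7 CPM per kilobase at 24h, against 274 at 0h.

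Promoters were searched for short motifs named in the literature for this gene family and for KLF factors, on both strands, from 250 bases before to 50 after the start. RefSeq promoters (build GRCm38.p6) matched 66 of the 84 members. NRF1, a known activator of respiratory chain genes, has a palindromic motif, shown in capitals in the first stretch below, which was in 7.58% of member promoters and 2.16% of all promoters of tested genes. The YY1 motif AAGATGGCG was in 9.09% and 3.37%, and the ETS motif CCGGAAGT in 7.58% and 8.78%. The GC box GGGCGGGG was in 16.7% and 33.3%, and CCACACCC, a CACCC motif of the KLF type, in 3.03% and 4.12%. Of the tested members with a GC box, 9 of 10 fell at 24h, and 49 of 53 without it fell. A match is a description of the letters, not of binding. The stretches below run from 120 bases before to 30 after the start of 3 members, in each case the one with the largest fall at 24h among members with the NRF1, ETS or GC box motif in that window, with the motif in capitals (the last one on the opposite strand).
Ndufa11, chr17:56717642-56717791, plus strand: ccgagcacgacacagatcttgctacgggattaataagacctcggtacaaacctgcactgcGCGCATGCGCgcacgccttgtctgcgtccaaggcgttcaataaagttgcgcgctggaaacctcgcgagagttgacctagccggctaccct
Uqcr11, chr10:80406792-80406941, minus strand: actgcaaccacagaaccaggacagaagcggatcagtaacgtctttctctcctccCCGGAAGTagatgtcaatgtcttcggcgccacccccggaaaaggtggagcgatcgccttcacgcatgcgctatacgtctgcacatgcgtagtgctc
Ndufa8, chr2:36049309-36049458, minus strand: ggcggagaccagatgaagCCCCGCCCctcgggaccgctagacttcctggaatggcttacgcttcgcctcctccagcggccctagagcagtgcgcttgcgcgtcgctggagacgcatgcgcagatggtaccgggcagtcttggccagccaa

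Lists of genes around the complexes are given beside the 24.8% of all genes that fell and the 26.1% that rose at 24h. Of the 7 tested subunits and carriers outside the symbol rule, 5 fell at 24h and 0 rose, with a median of -0.24. Cycs, cytochrome c itself, had 252 and 239 CPM at 24h, against 335 and 339 CPM at 0h, and fell by 0.46 ± 0.04 (adjusted p = 1.1e-11). Usmg5, a small subunit of the ATP synthase, fell by 0.60 ± 0.06, and Cyc1, the cytochrome c1 of complex III, by 0.24 ± 0.05. Of 44 tested assembly factors 23 fell and 1 rose, with a median of -0.18. Among them Uqcc2, a complex III factor, fell by 0.56 ± 0.08 and Cox17, a copper chaperone, by 1.13 ± 0.18, and Ttc19 rose by 0.25 ± 0.09. Of 14 TCA cycle genes 9 fell and 1 rose, with a median of -0.16. Mdh2, malate dehydrogenase, fell by 0.32 ± 0.04, and Dld, a shared dehydrogenase subunit, rose by 0.12 ± 0.04.

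Of 15 factors for transcription of these genes and the upkeep of mitochondrial DNA, 3 were lower, 2 higher and 10 not called at 24h, both shares below those of all genes (24.8% and 26.1%). Nrf1 changed by -0.048 ± 0.053 and Tfam, which packages mitochondrial DNA, by -0.082 ± 0.056 (adjusted p = 0.47 and 0.22). Ppargc1b, a coactivator, rose by 0.41 ± 0.12, and Gabpb1, a partner of the ETS factor GABPA, by 0.32 ± 0.05 (adjusted p = 0.0035 and 2.9e-06). Of the 13 subunits encoded in mitochondrial DNA, 4 rose and 1 fell at 24h, and the share that rose is near the 26.1% of all genes. The complex I genes mt-Nd2 and mt-Nd1 rose by 0.47 ± 0.04 and 0.23 ± 0.04, while mt-Co1 of complex IV fell by 0.13 ± 0.04. Among the 13, mt-Nd3, mt-Nd4l, mt-Co2, mt-Co3, mt-Atp6 and mt-Atp8 were near the floor, with at most 2.67 CPM in any library, and were not called. The sum of the 13 thus rests on the others. It was 16242 and 17208 CPM at 24h, against 15932 and 15906 CPM at 0h. The nuclear members summed to 11494 and 10998 CPM, against 13290 and 13602 CPM.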

How the data were processed

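RNA was sequenced from 8 libraries, 2 at each of 0h, 6h, 12h and 24h, from total RNA with a TruSeq PE kit, per the labels' protocols. The authors deposited raw counts per Ensembl gene, and the submitters' processing notes name build mm10 and the tools STAR, HTSeq 2.0.3 and SAMtools 1.3. Neither the annotation release nor the strand setting is stated there. Symbols, lengths and overlaps came from GENCODE M21, to which 46574 of 47069 gene IDs matched. Summary rows that name no gene were left out of library sizes; no-feature fragments are given in the report. The members, gene lists and tests were chosen with earlier results of these data known.

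All 8 libraries entered 1 quasi-likelihood fit in edgeR 4.0.16 (R 4.3.3), with TMM scaling and filterByExpr by time, which kept 14263 genes. The biological coefficient of variation was 3.10%, with 4 residual degrees of freedom. A gene was called at a two-sided Benjamini-Hochberg adjusted p under 0.05, over all genes. Each SE is the absolute log2 fold change divided by the square root of F. Counting intervals are exact, at 95%. Transcript length is that of 1 principal transcript per gene. Offsets were splines of GC content and length, of 5 degrees of freedom. The length-only and GC-only offsets were added after seeing the data. The fits were tested on simulated data. Members named in full were the 6 with the smallest adjusted p over the time course in each complex, core subunits, isoforms, those rising at 24h and those failing the filter. DESeq2 1.42.0 was an alternative. A few individual genes are not reported here.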

Additional observations from a re-analysis of the deposited data

Results flagged for a closer look

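The change against 0h differed between 6h and 12h for 15 members, by edgeR's test of 12h against 6h, which called 20.7% of all genes. The members' share is no higher than that. It was lower at 12h for Ndufa5 (-0.27 on the log2 scale), Ndufs5 (-0.19), Atp5g1 (-0.19), Sdhc (-0.18), Sdhd (-0.18), Ndufs3 (-0.17), Atp5a1 (-0.17), Ndufa10 (-0.16), Ndufa9 (-0.14), Atp5b (-0.14), Atp5g3 (-0.13), Ndufa4 (-0.12) and Atp5g2 (-0.12). It was higher at 12h for Cox7a2l (0.12) and Ndufa4l2 (1.39), though Ndufa4l2 passed the filter only through the later times, so its call is no support. The change differed between 12h and 24h for 4 members, by the test of 24h against 12h, which called 6.46% of all genes, also no lower than the members' share. Of these, Uqcr11 (-0.26), Ndufa8 (-0.24) and Sdhd (-0.14) were lower at 24h and Cox6a2 (1.22) was higher. These tests share the 12h libraries.

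Fragments that fell in no gene feature, which enter no comparison, averaged 6.21% at 6h, 8.63% at 12h and 9.15% at 24h, above the 5.47% ± 0.316 at 0h (SD, n = 2). Their part in the members' decline was not tested.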

How the results depend on the processing

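Medians over all members kept their direction in every alternative run. Summed levels kept theirs with other scaling, without the most abundant member and without 1 library, but were not run with any offset. Most changes of members named in full kept their direction too, with the exceptions given here. Calls held less well: the GC content and length offset cut the falls at 24h from 67 to 32. The median of complex IV alone was 0.0070 at 6h and 0.021 at 12h with the GC content and length offset. With the GC content and length offset, 13, 32 and 32 members were lower at 6h, 12h and 24h and 4 and 7 higher at 12h and 24h (2 higher at 24h against 12h), medians were -0.046, -0.076 and -0.076, and 41 were called over the time course. Of the members named in full, Atp5c1 (0.012), Cox5a (0.13), Uqcrb (0.057) and Uqcrc2 (0.036) changed sign at 24h. With the length offset alone the falls were 12, 25 and 33, the rises at 12h and 24h 6 and 6 (2 at 24h against 12h), the medians at 12h and 24h -0.076 and -0.087, 36 were called over the time course, and Atp5g2 (0.021) and Cox5a (0.061) changed sign. With library totals alone, 18 fell at 6h, 7 fell at 12h against 6h and 4 rose at 24h, the medians at 12h and 24h were -0.15 and -0.19, and the log2 ratios of summed CPM at 24h were -0.20, -0.13 and -0.21 for complexes II, III and V. Without the most abundant member of each complex the ratio of complex II was -0.31. By DESeq2, 18 fell at 6h, and 6 fell and 1 rose at 12h against 6h, with 0 falling at 24h against 12h. Against a fold of 1.5, 0 fell at any time or step and 1 rose at 12h, with 0 rising at 12h against 6h. With the stricter filter the rises were 0, 1 and 1 at 6h, 12h and 24h and 1 at 12h against 6h, and the median at 12h was -0.20, since fewer genes were tested. Rises at 12h against 6h were 1 with no filter and 1 with only the 4 libraries of the comparison, which gave 5 falls at 24h against 12h.

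Leaving out 1 library in turn, the falls ran from 10 (without 0h replicate 2) to 63 (without 6h replicate 2) at 6h, from 50 to 64 at 12h, from 57 to 70 at 24h, from 3 (without 6h replicate 2) to 35 (without 6h replicate 1) at 12h against 6h, and from 0 to 10 at 24h against 12h. The rises ran from 1 to 2, 1 to 3, 2 to 3, 1 to 6 and 1 to 2 in the same order. Medians ran from -0.20 to -0.077 at 6h, -0.23 to -0.19 at 12h and -0.28 to -0.23 at 24h, calls over the time course from 57 to 73, and summed CPM ratios from -0.32 to -0.22, -0.28 to -0.25, -0.23 to -0.16, -0.28 to -0.18 and -0.30 to -0.25 for complexes I to V. A library alone at its time was assumed to vary like the others.

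With the replicate number as a block, 35, 59 and 65 members fell. Deviations of same-numbered libraries correlated by -0.17 to 0.18 over pairs of times. With 2 libraries per time, these values cannot tell whether same-numbered libraries share a source, which the labels do not give. The causes were not tested.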
